A study of Mus musculus with 24 samples.

Results

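Endothelial cells from the leg muscles of galectin-3 knockout (KO) mice kept on a high-fat diet (HFD) were compared with the same cells from KO mice kept on chow. The comparison uses 6 of the 24 arrays of the series. These are the 3 labelled as KO, HFD and skeletal muscle and the 3 labelled as KO, chow and skeletal muscle. Each HFD array was paired with the chow array of the same trial, numbered 1 to 3 in the labels. A trial was taken to be 1 of the study's replicate experiments. Both diet groups carried the same homozygous deletion of Lgals3 (strain B6.Cg-Lgals3tm1Poi/J), so what differed by design was the diet alone, with 60% of calories from fat on HFD and 12% on chow. The feeds came from different makers (BioServ for HFD and LabDiet for chow), so fat content and other components of the feed cannot be told apart. The mice were males that entered the study at 8 weeks of age and were fed for 8 weeks. The plantaris, gastrocnemius and biceps femoris were digested, about 10000 living CD105+/CD45- cells were sorted, and each array holds the amplified RNA of 3 to 4 pooled mice, so the spread between arrays is one between pools. In these bulk samples a smaller share of a cell type and less RNA per cell cannot be told apart.

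The endothelium of skeletal muscle is mostly capillary. It passes fatty acids, glucose and insulin from blood to fibres, it makes the basement membrane on which it sits, and it sets vessel tone through endothelin, nitric oxide, prostanoids and adenosine. Galectin-3 is a lectin that binds galactosides on glycoproteins and advanced glycation end-products, and the study asked how vessels respond to diet-induced diabetes when it is missing.

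Every level below is the log2 of a probe's signal over the 75th percentile of its array, so that 0 is the 75th percentile and 1 unit is a doubling, and every ratio is the HFD level minus the chow level of the same trial. The 6 arrays had 75th percentiles of 2390 to 4755 intensity units and 61.1% to 70.3% of spots well above background. The sorted cells had an endothelial profile: all 24 genes of the endothelial identity list were well above background on all 6 arrays, among them Pecam1, Cdh5, Kdr and Tie1, and their median ratio was 0.02. The probe for Lgals3 gave signal on every muscle array. In KO its levels were 5.08, 5.12 and 4.64 on chow and 4.31, 6.31 and 5.04 on HFD. In wild-type (WT) muscle they were lower in each trial, at 4.77, 4.98 and 4.31 on chow and 3.61, 3.27 and 3.46 on HFD. The probe's place relative to the deleted exons is not known here, so it checks nothing. A second check placed each muscle array on a scale from 0 (WT arrays of trials 2 and 3) to 1 (KO arrays of trials 2 and 3) by the 105 probes that set the strains apart in the aortas of trials 2 and 3. The arrays of trials 2 and 3 set the ends, so only those of trial 1 are placed by it. The array labelled KO chow trial 1 lay at 0.898 and that labelled KO HFD trial 1 at 0.698, and at 0.951 and 0.441 on the 26 of these probes that were also apart in muscle, a restriction chosen after seeing the data. The array labelled WT chow trial 1 lay at 0.346 and 0.0927, and that labelled WT HFD trial 1 at 0.458 and 0.464, so 3 of the 4 muscle arrays of trial 1 lay well inside the ends on the first scale and both HFD arrays on the second. For this reason the main results are given also without trial 1.

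Within a trial the diet ratio was past 1 in either direction for 11.9% of probes in trial 1, 27.3% in trial 2 and 11.1% in trial 3. Chow arrays of different trials differed that much at 12.8% to 18.5% of probes, and HFD arrays at 19.3% to 30.7%. The share of trial 2 lay above every share between chow arrays and within the range of those between HFD arrays. The median ratios over all probes were -0.08, 0.13 and -0.02. Across probes, which are not independent replicates, the ratios of trials 1 and 2 had a Pearson correlation of 0.283, those of trials 1 and 3 of 0.057 and those of trials 2 and 3 of 0.106.

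Of 24781 probes tested, 1 passed an adjusted p of 0.05 (limma with Benjamini-Hochberg adjustment, 0.00404%), that of Cyp2e1. At an unadjusted p under 0.05 there were 2208 probes (8.91%), 962 higher on HFD (3.88%) and 1246 lower (5.03%), and the chow and HFD arrays did not overlap at 4.13% of probes with HFD above and 5.1% with HFD below. By the criterion of a ratio past 1 in each of the 3 trials, 112 probes were higher (0.452%) and 126 lower (0.508%). Taking, as for every gene below, the brightest probe of each of 13316 named genes, 70 genes were above 1 in all 3 trials (0.526%) and 47 below -1 (0.353%). Of those 70 genes, 38 were well above background on all 6 arrays, and of the 47 genes 21 were. Without trial 1 no probe passed the adjusted test, and 145 genes were above 1 and 181 below -1 in both remaining trials. The probe of Cyp2e1 entered the test only through the chow arrays, where it was bright, and it is not among those bright on all 6 arrays, so that its call is partly one of the filter. All genes are described by where their 3 ratios lay.

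Cyp2e1, a cytochrome P450 that oxidises ethanol, ketones and fatty acids, was the one gene that passed the adjusted test, with lower levels on HFD. Its chow levels were -0.78, -2.56 and -2.00 in trials 1 to 3, and its HFD levels were -5.96, -8.06 and -7.31. No HFD array came near any chow array, and only 1 of the 3 HFD arrays was well above background. The mean log2 ratio was -5.33 ± 0.16 (SD, n = 3 trials), with an adjusted p of 0.00433 by limma. The call was lost when any 1 trial was left out, with adjusted p from 0.13 to 0.528, at ratios from -5.41 to -5.24. After normexp background correction the ratio was -3.47, with an adjusted p of 0.0149 by limma, so its size depends on how the background of the dim HFD spots is handled. It was also lost in a fit of the 6 KO arrays alone, with an adjusted p of 0.0584. Adipocytes express Cyp2e1 too, and the summed level of 12 adipocyte markers was 79.7, 24.8 and 44.3 times the 75th percentile on chow and 29.2, 12.5 and 10.5 times on HFD, lower in each trial with overlapping groups. Its part in the result was not tested.

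The plot of levels by array shows Cyp2e1 with 7 further genes of different roles.

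**Figure D1:**
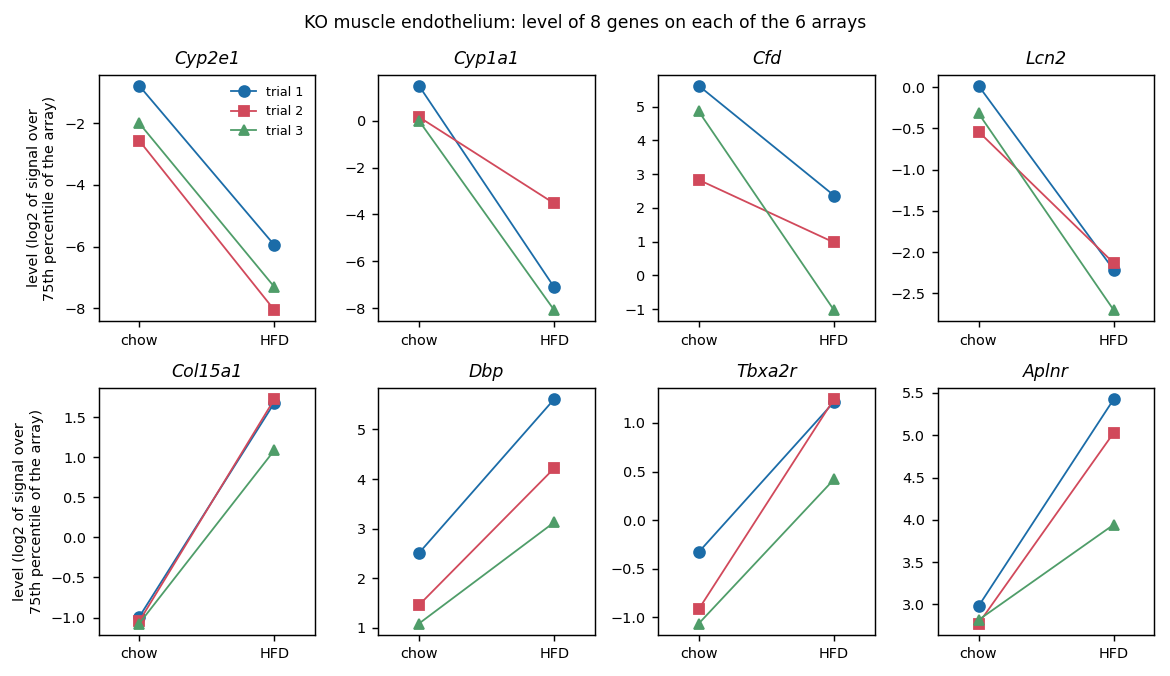
Level (log2 of signal over the array's 75th percentile, vertical axis) of 8 genes on the 3 chow and 3 HFD arrays of KO muscle endothelium, with a line joining the arrays of 1 trial. All 3 lines go down for Cyp2e1, Cyp1a1, Cfd and Lcn2 and up for Col15a1, Dbp, Tbxa2r and Aplnr, and the chow and HFD points do not overlap in any of the 8 genes.

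Some other enzymes that oxidise or conjugate small molecules, which form no list of their own, lay lower on HFD without passing the main adjusted test. Cyp1a1, which oxidises aromatic compounds and is the classic target of the aryl hydrocarbon receptor, had levels of 1.49, 0.16 and -0.0037 on chow and -7.11, -3.53 and -8.09 on HFD. Only the trial 2 array of HFD stood well above background, so the HFD levels of trials 1 and 3 are those of dim spots and set no size for the gap. The adjusted p was 0.234 by limma, and 0.0355 after normexp correction, when the mean log2 ratio was -5.14. Of 6 tested members of a list for this receptor, drawn up after these values were seen, 4 had a mean ratio above 0 and 2, with Cyp1a1, below. Cyp1b1 had ratios of 1.5, 1.92 and 0.84, above 0 in each trial, and Nqo1, Tiparp and Ahr itself stayed within -0.49 and 0.54 in every trial. The receptor's part was not tested. Cyp27a1, the sterol 27-hydroxylase, picked out after its values were seen, was at -3.17, -3.36 and -3.14 on chow and -4.42, -6.06 and -7.15 on HFD, with 1 HFD array well above background. Gstm7, a glutathione transferase, gave ratios of -1.45, -1.36 and -1.17. Aldh2, the mitochondrial aldehyde dehydrogenase, gave -1.46, -2.08 and -0.74 from levels of 1.86, 2.18 and 1.76 on chow and 0.40, 0.11 and 1.03 on HFD, and its groups did not overlap. Of 23 antioxidant and detoxifying genes tested, these last 2 were the only ones with an unadjusted p under 0.05 (limma), both downward. Over all genes 3.69% passed downward and 4.27% upward. Of the list's members 14 had a mean ratio above 0 and 9 below, and its median ratio of 0.11 was close to the 0.05 of all genes.

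Several genes of the basement membrane stood higher on HFD. Col15a1, the collagen XV chain that ties capillary basement membrane to the fibrils around it, had the smallest p of any gene that was higher on HFD. Its chow levels were -0.99, -1.05 and -1.08 and its HFD levels 1.68, 1.72 and 1.09, a gap many times the spread within either group. The mean log2 ratio was 2.54 ± 0.33 (SD, n = 3 trials), with an unadjusted p of 8.68e-06 and an adjusted p of 0.102 by limma. It passed the adjusted test under 3 alternatives, with p of 0.0254 after normexp background correction, 0.0145 without the trial pairs and 0.0142 with the slide as the block. Of 18 basement membrane genes tested, 9 were above 0 in all 3 trials, where 15.4% of all genes were, 2 were below 0 in all 3, where 13% were, and 5 passed an unadjusted p of 0.05 upward, where 4.27% did. Besides Col15a1 these were Lamb1, a laminin beta chain with ratios of 1.77, 0.42 and 1.54, the linker protein Nid2 with 0.70, 0.47 and 0.96, the heparan sulphate proteoglycan perlecan (Hspg2) with 0.89, 0.57 and 0.55, and agrin (Agrn) with 0.34, 0.92 and 0.44. The major type IV collagen chain Col4a1 gave 0.13, 0.55 and 0.28, all above 0 but small, and Col4a2 gave 0.49, -0.65 and 0.68 with no common direction. The list's median ratio was 0.44 (all genes 0.05), and without trial 1 it was 0.57 (all genes 0.11). Without trial 1 only 1 of the 18 passed an unadjusted p of 0.05 upward by limma, where 339 of all 13316 genes did.

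The interstitial matrix, normally made by fibroblasts, was higher in trials 1 and 2 and not in trial 3. Of 19 genes tested 17 had a mean ratio above 0, and the list's median was 1.20 and 1.41 in trials 1 and 2 against -0.05 in trial 3. Col3a1, a fibrillar collagen, gave ratios of 1.55, 2.67 and 0.93, and the collagen crosslinking enzyme Loxl1 gave 1.25, 1.75 and 0.91. Tenascin C (Tnc), a matrix protein of injured and growing tissue, was past 1 in all trials at 2.25, 2.43 and 1.15, with an unadjusted p of 0.0704 by limma. Other matrix genes above 1 in all 3 trials, picked out after their values were seen, were lumican (Lum), which regulates fibril width, at 2.03, 4.80 and 1.61, the microfibril protein Mfap4 at 2.35, 2.39 and 4.64, the cartilage protein Cilp at 2.08, 2.22 and 4.09, Cthrc1 at 1.43, 1.84 and 1.43, the papilin gene Papln at 2.70, 1.62 and 2.69 and the aggrecan-cleaving protease Adamts5 at 1.08, 1.34 and 1.48. Of 9 fibroblast markers all were well above background on all 6 arrays, Pdgfra gave 0.72, 1.76 and 0.28, and the list's summed level was 92.5, 13.9 and 27.2 on chow and 114, 76.7 and 20.7 on HFD. Their part in the matrix values was not tested.

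The plot of gene lists by trial sets these lists beside the others.

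**Figure D2:**
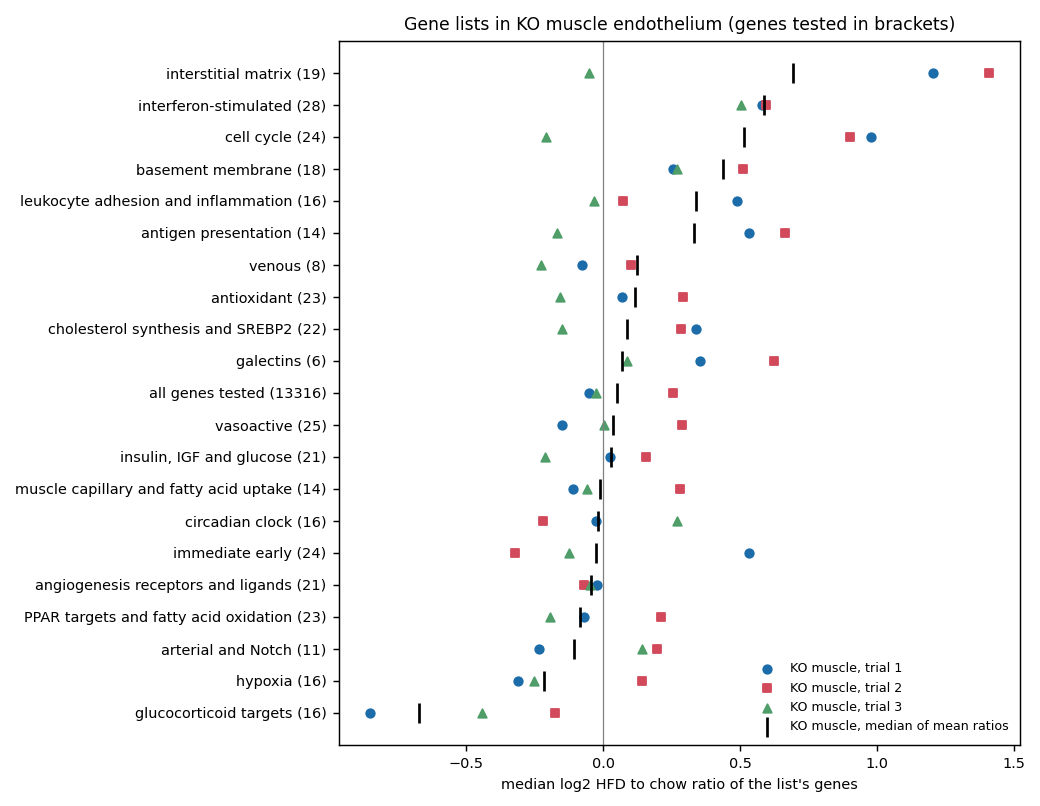
Median log2 HFD to chow ratio (horizontal axis) of the tested genes of each pathway list and of all genes, with 1 symbol per trial and a bar for the median of the genes' mean ratios. The interferon list is near 0.5 to 0.6 in every trial, the interstitial matrix and cell cycle lists are high in trials 1 and 2 and below 0 in trial 3, and the glucocorticoid list is below 0 in all 3 trials.

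Circadian clock genes lay on both sides, and targets of the same activators were found on each. In the clock, Arntl (BMAL1) and Clock drive the Per and Cry repressors, the nuclear receptors Nr1d1 and Nr1d2 (REV-ERB) and the PAR bZIP factors Dbp and Tef, and REV-ERB in turn represses Arntl and Nfil3. Dbp had chow levels of 2.51, 1.46 and 1.09 and HFD levels of 5.61, 4.22 and 3.13, with all HFD arrays above all chow arrays. Its mean log2 ratio was 2.63 ± 0.54 (SD, n = 3 trials), with an adjusted p of 0.13 by limma. In limma it passed with the slide as the block, at an adjusted p of 0.0405, and after normexp correction, at an adjusted p of 0.0355. Nr1d1 gave ratios of 3.40, 1.80 and 2.50 from chow levels of -2.10, -0.66 and -1.80, and Nr1d2 gave 1.53, 1.16 and 1.32. These 3 genes were past 1 in every trial. Tef gave 1.14, 0.68 and 1.41, and Ciart, a repressor of the BMAL1 complex, gave 3.01, 0.22 and 1.65. Of the genes that lay lower, Arntl gave -1.87, -1.53 and -0.75 with levels of 1.80, 2.01 and 1.73 on chow and -0.07, 0.49 and 0.98 on HFD that did not overlap, Nfil3 gave -2.02, -0.63 and -1.06, Cry1 gave -0.90, -1.29 and -0.27 and Rora gave -0.64, -0.64 and -0.58. In all, 5 of 16 tested clock genes passed an unadjusted p of 0.05 upward and 4 downward, where 4.27% and 3.69% of all genes did, and the list's median ratio of -0.02 hides both directions. Without trial 1 the counts were 4 upward and 2 downward, where 339 and 321 of all 13316 genes passed. Clock, Per1 and Per2 had mean ratios of -0.13, -0.43 and -0.42, with Per1 and this probe of Per2 below 0 in trials 1 and 2 and above 0 in trial 3.

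The E-box CACGTG is the site that the BMAL1 and CLOCK pair binds, and D-boxes (TTATGTAA or TTATGCAA) are bound by Dbp, Tef and Nfil3. Promoters are shown for 3 clock genes in which these letters were found, of which Ciart and Tef lay higher and Cry1 lower on HFD. Each runs from 250 bases before to 50 bases after the annotated start on its own strand, in RefSeq's GRCm38.p6, with the E-box in capitals:
Ciart, chr3:95882179-95882478, minus strand: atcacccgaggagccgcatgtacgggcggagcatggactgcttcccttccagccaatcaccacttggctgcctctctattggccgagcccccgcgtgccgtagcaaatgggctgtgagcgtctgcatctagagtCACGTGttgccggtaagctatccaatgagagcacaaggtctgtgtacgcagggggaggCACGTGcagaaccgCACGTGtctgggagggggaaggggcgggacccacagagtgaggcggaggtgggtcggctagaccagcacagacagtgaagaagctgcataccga
Tef, chr15:81811164-81811463, plus strand: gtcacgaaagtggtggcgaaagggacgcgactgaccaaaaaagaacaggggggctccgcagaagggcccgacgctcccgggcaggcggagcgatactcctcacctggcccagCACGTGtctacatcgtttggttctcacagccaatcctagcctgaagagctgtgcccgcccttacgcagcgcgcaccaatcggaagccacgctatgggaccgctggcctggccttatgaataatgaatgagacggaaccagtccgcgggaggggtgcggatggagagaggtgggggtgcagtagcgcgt
Cry1, chr10:85185005-85185304, minus strand: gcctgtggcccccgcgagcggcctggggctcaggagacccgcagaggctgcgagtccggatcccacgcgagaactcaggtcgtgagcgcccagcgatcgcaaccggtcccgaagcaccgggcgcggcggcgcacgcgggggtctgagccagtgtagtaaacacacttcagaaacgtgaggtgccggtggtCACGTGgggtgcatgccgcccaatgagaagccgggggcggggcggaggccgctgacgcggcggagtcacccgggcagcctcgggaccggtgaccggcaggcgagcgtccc
Ciart held 3 E-boxes, at 116, 58 and 44 bases before the start. Both strands and every annotated start of a gene were searched. An E-box was present in 4 of the 13 tested clock genes with a promoter in the table, in 11.3% of all 10629 tested genes with one, in 4 of 50 genes above 1 in all trials and in 3 of 33 below -1. A D-box was present in 1 of the 13 clock genes, Per1, and in 1.45% of the 10629. The windows of Dbp, Nr1d1 and Nr1d2 held neither, which says only that these letters are not in these 300 bases.

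Interferon-stimulated genes stood slightly but evenly higher. Of 28 tested, 23 were above 0 in all 3 trials, where 15.4% of all genes were, none was below 0 in all 3, and 15 passed an unadjusted p of 0.05 upward by limma, where 4.27% did. The list's median was 0.58, 0.59 and 0.50 in trials 1 to 3, against -0.05, 0.26 and -0.03 over all genes. Oas1a, which makes the signal for RNase L, was the one member past 1 in every trial, with chow levels of -0.85, 0.0077 and -0.44 and HFD levels of 0.62, 1.22 and 0.57 and a mean log2 ratio of 1.23 ± 0.24 (SD, n = 3 trials). The ubiquitin-like modifier Isg15 gave 1.31, 0.58 and 0.86, the GTPase Gbp3 0.80, 1.23 and 0.51 and the chemokine Cxcl9 0.99, 1.88 and 0.79. Ifi44 gave 5.0, 0.43 and 0.58, so that its mean rests on trial 1. Without trial 1, 24 of the 28 were above 0 in both remaining trials, where 29.9% of all genes were, with a median of 0.57 against 0.11. Of the 28, 3 then passed an unadjusted p of 0.05 upward by limma, where 339 of all 13316 genes did. The summed level of 15 macrophage markers was 7.54, 2.42 and 4.30 on chow and 38.9, 5.09 and 2.25 on HFD, higher in trials 1 and 2 and lower in trial 3, and its part in the interferon values was not tested.

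**Figure D3:**
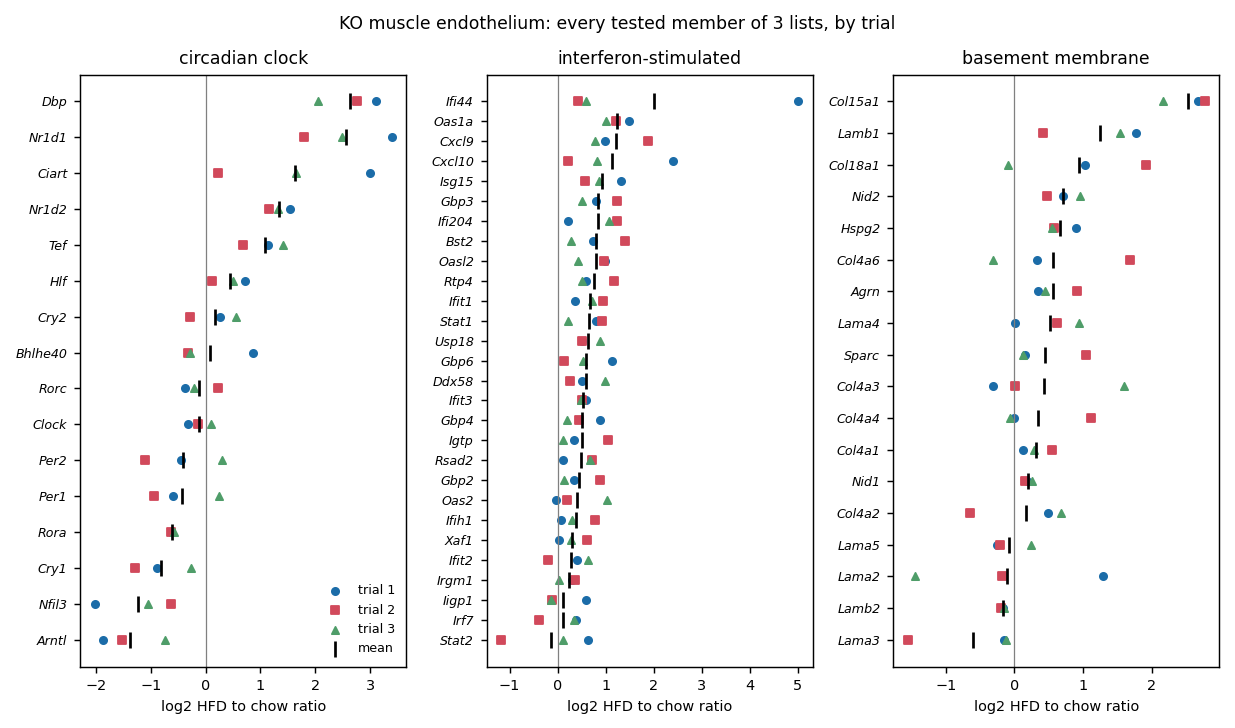
Log2 HFD to chow ratio (horizontal axis) of every tested member of the clock, interferon and basement membrane lists in KO muscle endothelium, with 1 symbol per trial and a bar for the mean. Clock genes spread from Arntl at the lower end to Dbp at the upper end, while 23 of the 28 interferon genes lie to the right of 0 in each trial.

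Glucocorticoid targets stood lower. Of 16 tested 14 had a mean ratio below 0, 7 were below 0 in all 3 trials, where 13% of all genes were, and 7 passed an unadjusted p of 0.05 downward by limma, where 3.69% did. The list's median ratio was -0.67, and -0.59 without trial 1, when 1 member passed downward, where 321 of all 13316 genes did. Lcn2, an iron-carrier-binding lipocalin that also rises in inflammation, was at 0.02, -0.54 and -0.32 on chow and -2.22, -2.13 and -2.71 on HFD, and the groups did not overlap. Arrdc2 gave -1.31, -1.79 and -0.41, Errfi1, an inhibitor of EGF receptor signalling, -1.22, -0.27 and -0.83, and Hif3a -1.19, -0.85 and -0.78, though 1 of the other probes of Hif3a had a mean ratio of opposite sign. Fkbp5, a chaperone of the receptor itself, gave -4.37, -0.75 and -0.67, so its mean rests on trial 1, as does that of the cell cycle inhibitor Cdkn1a with -2.04, -0.30 and -0.47.

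Genes that set vessel tone lay on both sides. Edn1, the precursor of the vasoconstrictor endothelin-1, had chow levels of 3.74, 3.26 and 4.19 and HFD levels of 2.46, 2.30 and 2.94, lower on every HFD array than on any chow array, with an unadjusted p of 0.00066 and an adjusted p of 0.244 by limma. Adora2b, the low-affinity adenosine receptor, gave ratios of -1.76, -1.05 and -1.29, with no overlap of the groups. Both subunits of soluble guanylate cyclase, the nitric oxide receptor of smooth muscle and pericytes, were below 0 in every trial, Gucy1a1 at -0.44, -1.14 and -1.60 and Gucy1b1 at -0.51, -0.34 and -1.06, and so were the angiotensin receptor Agtr1a at -0.49, -0.48 and -0.97 and the pericyte marker Rgs5 at -1.01, -1.38 and -0.69. Tbxa2r, the thromboxane receptor, was at -0.33, -0.92 and -1.07 on chow and 1.22, 1.25 and 0.42 on HFD, higher on every HFD array, and Aplnr, the apelin receptor, gave 2.45, 2.26 and 1.13 from chow levels of 2.98, 2.77 and 2.82. Endothelial nitric oxide synthase (Nos3) gave -0.07, 0.06 and 0.11, close to 0 in each trial. Of 25 vasoactive genes tested, 2 passed an unadjusted p of 0.05 upward and 5 downward, where 4.27% and 3.69% of all genes did, and the median ratio was 0.04. The summed level of 11 smooth muscle and pericyte markers was 193, 134 and 183 on chow and 168, 187 and 130 on HFD, and its part in the guanylate cyclase values was not tested.

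Genes of vessel growth also lay on both sides. Esm1 (endocan), a marker of sprouting tip cells, was below -1 in each trial at -1.01, -1.49 and -1.62, Angpt2, the antagonist ligand of Tek, gave -0.45, -0.97 and -0.91, and Pgf, a ligand of Flt1, gave -0.63, -1.01 and -2.67, with its lowest value in trial 3. The main receptor of vascular endothelial growth factor, Kdr, had a mean ratio of 0.14. Over 21 angiogenesis genes tested, 1 passed an unadjusted p of 0.05 upward, Aplnr, which the vasoactive list also holds, and 3 downward, where 4.27% and 3.69% of all genes did. Ephb1, an ephrin receptor of vessel guidance, was above 1 in each trial at 1.5, 1.74 and 1.27, with levels of -1.46, -2.07 and -1.68 on chow and 0.04, -0.33 and -0.41 on HFD.

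Of 21 insulin, IGF and glucose genes tested, 1 passed an unadjusted p of 0.05 upward and 2 downward by limma, where 4.27% and 3.69% of all genes did, so the upward count is near that share. Insr, the insulin receptor, gave -1.53, -2.35 and -0.02, lower in trials 1 and 2 and flat in trial 3. Igf1 gave 1.43, 1.53 and 0.94, and Igfbp3, the main carrier of IGFs in blood, -0.66, -0.69 and -0.46. The glucose transporter of endothelium, Slc2a1, gave -0.68, 0.15 and -0.30. Slc2a4, the glucose transporter GLUT4, had levels of 2.67, 1.70 and 2.01 on chow and 2.29, 1.70 and 0.84 on HFD. Its groups overlapped, and its largest gap was in trial 3. Genes of fatty acid uptake by muscle capillaries were flat: of 14 tested none passed an unadjusted p of 0.05, with mean ratios of -0.02 for the fatty acid transporter Cd36 and 0.22 for Gpihbp1, which holds lipoprotein lipase at the capillary wall. Of 23 PPAR targets and fatty acid oxidation genes tested 1 passed, Fabp3 at 1.38, 1.84 and -0.0059, and of 22 cholesterol synthesis genes 1 passed, Dhcr7 at 1.06, 1.10 and 0.27, where 4.27% of all genes passed upward. The median ratios of these 3 lists were -0.01, -0.09 and 0.09.

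Of 16 adhesion and inflammation genes tested, 2 passed an unadjusted p of 0.05 upward and 2 downward, where 4.27% and 3.69% of all genes did. Icam1, which arrests leukocytes on endothelium, gave -0.53, -1.72 and -1.06, from -2.55, -1.75 and -1.53 on chow to -3.07, -3.47 and -2.59 on HFD. The monocyte chemokine Ccl2 was above 1 in every trial at 1.11, 4.09 and 1.86, and its neighbour Ccl7 gave 6.64, 2.35 and 0.21, with most of its mean from trial 1 and 2 of 3 chow arrays well above background. Vcam1 gave 0.62, 0.56 and -0.12. The E-selectin gene Sele gave 3.58, -1.04 and -1.56, with no common direction. Of 14 antigen presentation genes, the MHC class II chaperone H2-DMb1 gave 2.53, 3.21 and -0.13 and the lysosomal protease Ctss 3.70, 4.68 and -4.07, both far higher on HFD in trials 1 and 2 only, and Ctss lower on HFD in trial 3. Macrophage markers themselves had list medians of 2.56, 1.63 and -1.45 in trials 1 to 3, although the sort removed CD45+ cells, and Adgre1, Mrc1, Cd163, Itgam, Lyz2 and C1qa were not well above background on all 3 arrays of either diet.

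Cell cycle genes showed the same dependence on trial. The mitotic genes Mki67 and Top2a gave 2.17, 3.80 and 0.11 and 3.28, 7.65 and 0.29, and Cdk1 gave 3.40, 4.55 and 0.03. These 3 were the members with an unadjusted p under 0.05 among 24 tested, all upward, where 4.27% of all genes passed. On chow, Top2a was well above background on 2 arrays and Cdk1 on 1. The list's median was 0.98 and 0.90 in trials 1 and 2 and -0.21 in trial 3. Of the lists not yet named, with the same shares of 4.27% upward and 3.69% downward over all genes, 1 of 11 arterial and Notch genes passed an unadjusted p of 0.05, Dll1 upward at 1.24, 0.37 and 0.77. None of 8 venous and none of 24 immediate early genes passed, and 1 of 16 hypoxia genes did, Egln1 downward at -0.47, -0.69 and -0.53. Of 6 galectin family genes tested 2 passed upward, Lgals1 at 1.21, 2.09 and -0.06 and the galectin-3 binding protein gene Lgals3bp at 0.93, 1.18 and 0.41.

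Adipocyte markers lay lower on HFD in these libraries. Cfd (adipsin), the complement factor that fat cells secrete, had chow levels of 5.62, 2.83 and 4.86 and HFD levels of 2.37, 0.98 and -1.03, without overlap. Its mean log2 ratio was -3.66 ± 2.05 (SD, n = 3 trials), with an unadjusted p of 0.00188 by limma. Adipoq gave -1.24, -0.23 and -2.04, Retn -1.62, -0.07 and -2.39 and the lipid droplet gene Cidec -0.77, -0.84 and -2.71. Of 11 tested adipocyte markers 10 had a mean ratio below 0, with a list median of -1.02. Skeletal muscle fibre markers lay slightly higher in trials 1 and 2 and lower in trial 3, with list medians of 0.42, 0.34 and -2.13. Of 6 lymphatic markers tested, 2 had a mean ratio above 0 and 4 below, with list medians of -0.57, -0.17 and -2.33. Of the lower ones, Lyve1 gave -0.65, -1.45 and -3.00. The endothelial list itself summed to 1221, 1200 and 1039 on chow and 1070, 1553 and 1041 on HFD.

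**Figure D4:**
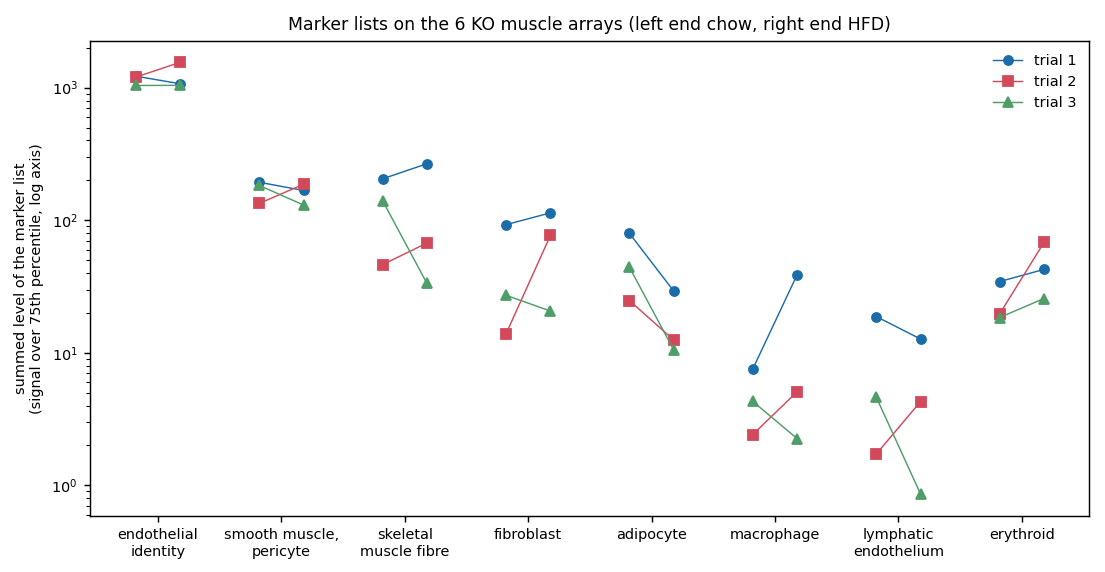
Summed level of each marker list (signal over the array's 75th percentile, added over the list's genes, log axis) on the 3 chow and 3 HFD arrays of KO muscle endothelium, with a line per trial from chow at the left end to HFD at the right end. Sums of different lists come from different probes and cannot be ranked against each other; within a list, the adipocyte sum is lower on HFD in every trial, while the fibroblast, macrophage, lymphatic and muscle fibre sums go different ways in different trials.

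Among the remaining genes past 1 in all 3 trials, those with the smallest p were Tafa3, a secreted chemokine-like protein, at -5.01, -3.12 and -3.72 on chow and -0.91, -0.46 and -0.74 on HFD, and, lower on HFD, Alkal2, a ligand of the ALK receptor, at -1.27, -1.35 and -0.54 on chow and -3.72, -3.87 and -2.97 on HFD. The ratios of Alkal2 agreed closely, at -2.45, -2.51 and -2.43, and those of Tafa3 were 4.09, 2.66 and 2.97. Their adjusted p was 0.178 and 0.178 by limma, and Tafa3 passed with the slide as the block (adjusted p of 0.0432) and after normexp correction (adjusted p of 0.0445). The CREB-like factor Crebl2 gave -1.40, -1.88 and -1.77, the acid-sensing channel Asic2 -1.74, -2.01 and -1.90, the adhesion protein Lrrc4 -2.45, -1.60 and -2.74 (adjusted p of 0.0318 by limma without the trial pairs), the vesicle GTPase Rab3b -1.65, -1.44 and -1.54, Pbld1 -1.94, -1.36 and -1.30, and Camk2n1, an inhibitor of CaM kinase II, -1.20, -1.25 and -1.12. On the upper side Pamr1 gave 1.60, 2.27 and 1.40 and the adhesion regulator Cytip 1.97, 2.38 and 1.55. Several genes were dim on one diet and have only a bound: averaged over 3 arrays, Kcnmb1, a potassium channel subunit, was at least 1.69-fold higher on HFD, Alpk1 at least 1.94-fold and Inhba, the activin A subunit, at least 15.7-fold (the last picked out after its values were seen), while Psg16 was at least 4.24-fold and Ovol1 at least 2.68-fold lower. Their adjusted p lay between 0.178 and 0.356 by limma. These bounds set the bright group's mean against the lowest signal called well above background on the dim arrays, or the dim probe's own where that was higher.

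The study lists 33 accessions for this tissue, chosen on these same arrays, so that they are no independent evidence of direction. By its note a listed transcript passed 1 in KO or in WT, and some did so in WT only. Of these 29 had a tested probe under the same accession, and in KO 4 were above 1 in all 3 trials and 5 below -1. The rest had mean KO ratios from -1.70 to 2.00. As the list was not drawn up for KO alone, these counts do not measure how well it recurs. Among them Gpx3, a secreted glutathione peroxidase, gave -0.35, -2.33 and -2.38.

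The same diet ratios in wild-type (WT, C57BL/6 J) muscle, from 6 other arrays on the same 3 slides, were set beside those of KO. On the same probes limma called none in WT at an adjusted p of 0.05 (0%) and 3024 at an unadjusted p under 0.05 (12.2%), and 181 probes were above 1 (0.73%) and 214 below -1 (0.864%) in all 3 WT trials. Of the 70 genes above 1 in all KO trials, 32 were above 1 in all WT trials too, where 0.946% of all genes were, and 53 were above 0 in all 3, where 20.4% were. Of the 47 genes below -1 in KO, 8 were below -1 in all WT trials, where 0.556% of all genes were, and 29 were below 0 in all 3, where 16.3% were. Without trial 1, the trial with arrays between the strains, 45 of the 145 genes above 1 in both KO trials were also above 1 in both WT trials (31% of them, 1.62% of all genes), and 33 of 181 below -1 (18.2%, against 2%). The difference between the strains was tested directly as a limma contrast, and no probe passed an adjusted p of 0.05 (0%), while 1013 had an unadjusted p under 0.05 (4.09%).

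**Figure D5:**
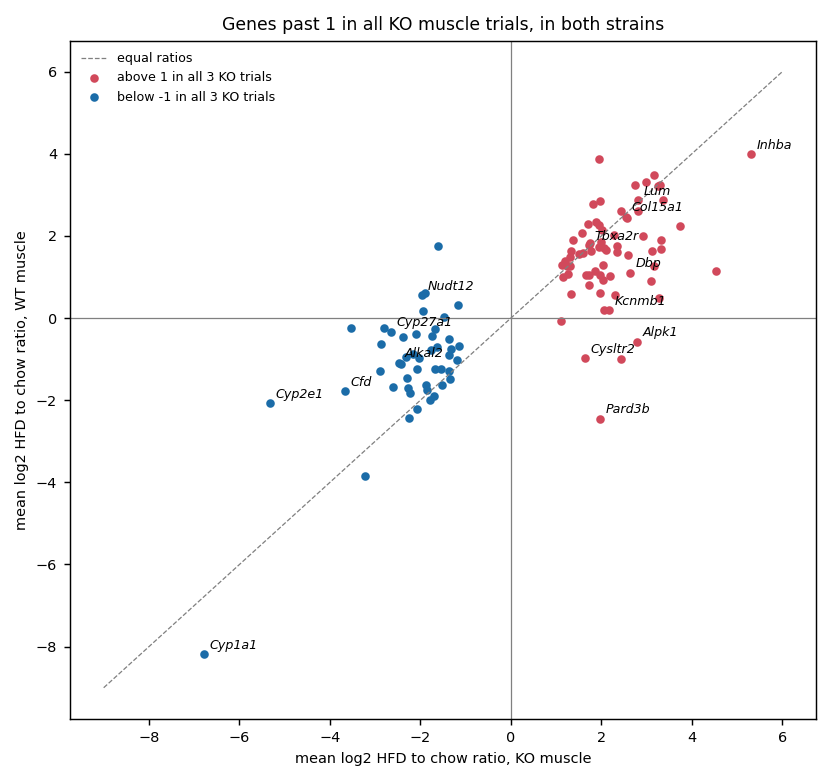
Mean log2 HFD to chow ratio in KO muscle (horizontal axis) and in WT muscle (vertical axis) of the 117 genes past 1 in all 3 KO trials, 1 point per gene, with a dashed line at equal ratios. The choice by KO values pulls points away from 0 on the horizontal axis; most points share the sign of the KO value, Cyp2e1 lies further down in KO than in WT, and Pard3b, Cysltr2 and Alpk1 lie above 0 in KO and below 0 in WT.

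Cyp2e1 had WT ratios of -1.92, -1.60 and -2.72, a difference of KO minus WT of -3.25, with an unadjusted p of 5.16e-05 and an adjusted p of 0.833 by limma. Cyp2e1 was named for its KO ratio and its probe was tested because the KO chow arrays were bright. The difference thus draws on the values that chose it, and its KO part depends on how dim HFD spots are handled. Dbp gave 1.32, 0.81 and 1.17 in WT, a difference of 1.54 with an adjusted p of 1, and Arntl gave -0.71, 0.47 and -0.23, a difference of -1.22. Nr1d1 and Nr1d2, gave WT ratios of 3.25, 1.22 and 2.85 and 1.87, 1.39 and 1.61, differences of 0.12 and -0.29. Cyp1a1 gave -9.90, -8.19 and -6.45 in WT, below -1 in all 3 trials as in KO. Col15a1 gave 2.46, 2.68 and 2.27 in WT, Tbxa2r 1.92, 2.00 and 1.39, Ephb1 1.35, 1.79 and 1.52 and Aplnr 1.69, 1.93 and 1.56, each above 1 in all 3 trials in both strains. The interferon list had a median of 0.60 in WT and 0.59 in KO, the basement membrane list 0.28 and 0.44, and the glucocorticoid list -0.15 and -0.67. The lists' differences were not tested. Among the genes with the largest moderated t of the strain contrast, the polarity gene Pard3b gave 1.77, 2.38 and 1.75 in KO and -1.01, -3.48 and -2.86 in WT, the leukotriene receptor Cysltr2 2.09, 1.11 and 1.70 and -1.41, -1.09 and -0.43, the amino acid transporter Slc1a4 -0.95, -0.72 and -1.36 and 1.61, 0.95 and 1.87, and the NADH hydrolase Nudt12 -1.71, -2.33 and -1.84 and 1.49, -0.05 and 0.21. On the KO chow arrays Pard3b was well above background on 1 and Cysltr2 on 2. The other tested probe of Nudt12 had a KO mean ratio of opposite sign. Icam1, below 0 in each KO trial, gave 0.44, 0.15 and 0.14 in WT, a difference of -1.34 with an unadjusted p of 0.00933 by limma.

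In the aortic endothelium of the KO mice of the same trials, 245 of the same probes were above 1 (0.989%) and 232 below -1 (0.936%) in all 3 trials. Of the 70 genes above 1 in KO muscle, 12 were above 1 and 30 above 0 in all aortic trials, where 18.2% of all genes were above 0. Of the 47 genes below -1 in muscle, 5 were below -1 and 13 below 0 in all aortic trials, where 15.3% of all genes were below 0, and 22 had an aortic mean ratio of opposite sign. The contrast of both tissues' responses called no probe (limma, adjusted p under 0.05, 0%), with 1587 at an unadjusted p under 0.05 (6.4%). Cyp2e1 gave aortic ratios of -5.52, -4.35 and -4.51, Cyp1a1 -8.47, -4.90 and -4.42, Col15a1 3.86, 2.66 and 2.53, Dbp 2.88, 2.88 and 2.52 and Nr1d1 3.37, 1.89 and 1.25, all in the direction of muscle. Adipocyte markers had an aortic list median of -3.42, against -1.02 in muscle. Esm1 went the other way, with 0.86, 2.13 and 2.45 in aorta and -1.01, -1.49 and -1.62 in muscle, a difference of -3.19 with an unadjusted p of 0.00035 and an adjusted p of 0.568. Ephb1 gave -0.58, -1.47 and -0.44 in aorta, and Aplnr -1.0, 0.20 and 1.0. The interferon list was at 0.13 in aorta and 0.59 in muscle, with Cxcl9 at -2.43, -0.73 and -0.39 in aorta.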

How the data were processed

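Amplified RNA was labelled with Cy3 and hybridised to 1-colour Agilent mouse arrays, 1 per pool, tissue and trial. Intensity was read by the authors' scanner with Agilent Feature Extraction, named as version 9.1 in the submitters' processing notes and as 10.5.1.1 per the file headers, and the processed signal there is background-subtracted. A log2 value table deposited by the authors differed from log2 of that signal by a constant per array and served as an alternative. Control spots were left out, spots of a probe were averaged, and log2 levels were taken over the 75th percentile of each array. Probes well above background on all 3 arrays of either diet were tested, 24781 of 41174, and no spot was saturated. A probe that passed only because one diet was bright had to differ, so the counts of such probes follow in part from the filter. The ratios were tested in limma 3.58.1 (R 4.3.3) on the within-trial differences of KO and WT muscle, which share one estimate of the spread, and for the tissue contrast on those of KO muscle and aorta. The labels give a trial number only, and arrays of the same number were taken to come from the same replicate experiment of the study. Deviations of KO chow and HFD arrays from their group means correlated by 0.454, 0.044 and 0.325 in trials 1 to 3. The highest correlation of the same HFD array with a chow array of another trial was -0.175, 0.128 and 0.252. In trial 2 the paired chow array was thus not the closest. All arrays of 1 tissue and trial shared a slide. With 3 arrays against 3 an exact permutation test cannot go below 0.1, so none was run. The number of arrays limits the precision. Genes were named by a rule: the 12 per direction with the largest moderated t among those past 1 in all 3 trials, the members of each list past 1 or otherwise up to 4 with the largest mean ratio, the genes of the study's own table for this tissue, Lgals3, and 5 per direction for each contrast. Flat list members, members counted at an unadjusted p, Mfap4, Cilp, Cthrc1, Adamts5, Inhba, Cyp27a1, Pdgfra and Slc2a4 were added after their values were seen. The members and lists were chosen with earlier results of these data known. The limma fits of the KO diet effect and of the tissue contrast were tried on simulated arrays, and the other steps were not. Gene names are those of the array annotation (18539 symbols), so an unnamed probe is unnamed here only.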

Additional observations from a re-analysis of the deposited data

Results flagged for a closer look

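For 4 of the genes named above, all 3 KO muscle ratios lay on one side of 0 and all 3 WT muscle ratios on the other, a pattern found in 203 of 13316 genes (1.52%). The difference of KO minus WT was 2.61 on the log2 scale for Cysltr2, -1.34 for Icam1, 4.42 for Pard3b and -2.49 for Slc1a4, with adjusted p from 0.833 to 1 by limma. Another 6 lay on opposite sides in KO muscle and KO aorta, as did 415 of all genes (3.12%). The difference of muscle minus aorta was -1.52 for Aldh2, 2.40 for Cxcl9, 2.34 for Ephb1, -3.19 for Esm1, -4.26 for Lrrc4 and -1.07 for Rora, with adjusted p from 0.568 to 0.726. Myod1, named further below, had the same pattern, with a difference of -1.34 and an adjusted p of 0.74 by limma. None of these differences passed the adjusted test.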

How the results depend on the processing

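The single probe at an adjusted p under 0.05 became 6 probes after normexp background correction, 4 with no replicate block, 7 with the slide as the block and 0 in the 6 KO arrays alone, in probes well above background on all 6 arrays (where that of Cyp2e1 was not tested), by the methods' t-test, and without any 1 trial (0 to 0). Under quantile normalization, median centring, the deposited table and no filter it was Cyp2e1 alone. Probes with an unadjusted p under 0.05 numbered 580 to 1073 higher and 789 to 1406 lower without 1 trial, 627 and 801 without the pairing, and 559 and 701 by the methods' t-test. Probes past 1 in every trial numbered 50 higher and 41 lower after normexp, 217 and 192 with no filter, 50 and 44 if bright on all 6 arrays, and 225 to 541 and 266 to 561 when 2 trials were enough. Unadjusted calls of the strain contrast fell to 543 with no replicate block, and its adjusted calls, like those of the tissue contrast, were 0 under every alternative run. The position of the KO HFD array of trial 1 was 0.441 on the probes also apart in muscle. Of the named genes, the ratio changed sign for Cd36 (0.026 after centring, -0.13 to 0.069 without 1 trial), Nos3 (-0.033 after quantile normalization, -0.0031 to 0.088 without 1 trial), Sele (-0.11 after normexp, -1.30 to 1.27), Col4a2 (-0.077 to 0.59), Ctss (-0.19 to 4.19), Lgals3 (-0.19 to 0.80) and, in the strain contrast, Nr1d1 (-0.11 to 0.36). The cause was not tested. Among probes with a gene name, dropping the pairing added calls of Col15a1 and Lrrc4, and the slide as the block added Col15a1, Dbp, Tafa3 and Ypel1. Genes with 1 or 2 dim arrays on a diet have ratios set by noise near background.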

Other observations

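Markers of further cell types lay on both sides in the KO muscle libraries. Of 5 satellite cell genes tested, 2 had a mean ratio above 0 and 3 below, with list medians of 0.43, 0.09 and -1.04 in trials 1 to 3. Of the lower ones, Myod1 gave ratios of -0.57, -0.36 and -1.04 and Chodl -0.08, -2.48 and -2.95. Of the brown adipocyte genes Cidea gave -1.52, -1.53 and -0.46 while the deiodinase Dio2 gave 1.07, 3.52 and 0.84. The fast myosins Myh1 and Myh2 gave 0.97, 1.19 and 0.32 and 1.25, 1.61 and 0.10, both above 0 in trial 3, where the median of the fibre list was -2.13. The summed level of 4 erythroid genes was 34.4, 19.6 and 18.5 on chow and 42.6, 68.0 and 25.7 on HFD, higher on HFD in every trial with overlapping groups.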
